A study of Mus musculus with 3 samples.

Results

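The interferon regulatory factors (IRFs) were examined in regulatory T cells (Tregs) that had lived through inflammation. Members were the rows of the estimated gene and transcript tables whose GENCODE M21 name was Irf1, Irf2, Irf3, Irf4, Irf5, Irf7, Irf8 or Irf9, which gave 8 of 55536 genes and 70 annotated transcripts. The rule uses gene names alone and no measured value. Polyadenylated RNA was sequenced from Tregs of the mouse strain Foxp3CreERT2 x Rosa26YFP, in which Foxp3 drives a Cre recombinase that acts only with an oestrogen receptor ligand and the Rosa26 locus carries a yellow fluorescent reporter. The labels give 1 group: primary cells of an adult male mouse aged 6 months, described as inflammation-experienced, with RNA fragmented by shearing to a size range of 100 to 300. There was 1 biological replicate with 3 technical replicates, called library 1, 2 and 3 after their numbers. Neither the kind and time of the inflammation nor the step that divided the technical replicates is given in the sources used here. No second condition was analysed here, so the comparisons below are between genes, between transcripts and between these 3 libraries. The labels name no separate animals for the libraries, so no p-value measures a spread between animals. The p-values below set differences between libraries against counting noise, or compare genes within libraries. Differences between the libraries may be technical.

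IRFs are transcription factors that share an amino-terminal DNA-binding domain and recognise repeats of GAAA in gene promoters. IRF3 and IRF7 are switched on by kinases downstream of nucleic-acid sensors and drive interferon genes, whereas IRF9 is part of the complex ISGF3, which carries the signal of type I interferon to the nucleus. IRF1 is induced by interferon-gamma, IRF2 competes with IRF1 for the same sites, and IRF4 together with BATF and JUN proteins is needed for the effector state of Tregs.

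The libraries held between 10667765 and 14136139 estimated counts on genes. All 10 Treg and T cell markers checked were detected, which here means at least 1 TPM (transcripts per 1000000, a level adjusted for length) in all 3 libraries, and Foxp3 itself stood at 18.0, 14.2 and 16.0 TPM in libraries 1, 2 and 3. Markers of other cell types were unequal between libraries. Of 10 B cell markers 4 were detected, and their summed level was 28.9, 61.3 and 76.4 TPM. Of 10 macrophage and monocyte markers 2 were detected, with sums of 9.67, 60.1 and 24.8 TPM. Plasma cell markers summed to between 2.10 and 28.1 TPM with none of 5 detected, dendritic cell markers to between 14.5 and 18.1 TPM with 3 of 10 detected, and CD8 T and NK cell markers to between 7.15 and 21.6 TPM with 1 of 6 detected. Erythroid markers, 3 of 6 detected, summed to 4.83, 51.2 and 286 TPM, and in library 3 Hbb-bs alone stood at 108 TPM, above Irf9. No marker of any list was at 0 in all 3 libraries.

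All 8 IRF genes were detected in every library, and their levels fell into a high, a middle and a low tier. Irf1 and Irf2 were the most abundant, at 201 ± 14.5 and 171 ± 8.80 TPM (mean ± SD, n = 3 libraries), and together made 57.3% of the family's summed TPM. Irf9, Irf3 and Irf7 lay between 66.4 and 88.7 TPM on average, and Irf5, Irf8 and Irf4 between 15.4 and 21.2 TPM. The highest mean was 13.0 times the lowest. The summed TPM of the 8 genes was 625, 691 and 632 in libraries 1, 2 and 3, and Irf1 with Irf2 took 58.2%, 57.6% and 56.1% of it. For comparison, the 7 STAT genes, which carry cytokine signals to the nucleus, summed to 871, 912 and 890.0 TPM.

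**Figure D1:**
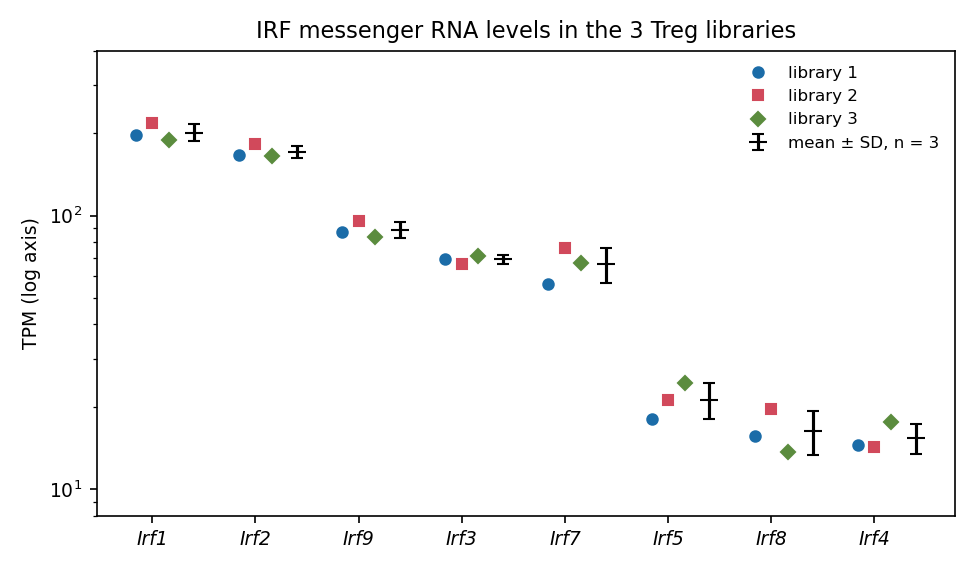
TPM of the 8 IRF genes on a logarithmic axis, ordered by mean level, with 1 symbol for each library and a black bar for the mean ± SD over the 3 libraries. Irf1 and Irf2 lie between 165 and 217 TPM, and Irf5, Irf8 and Irf4 all lie at or below 24.4 TPM.

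The order of levels was examined with differences of log2(TPM + 0.1) within each library. With 3 libraries the exact two-sided sign-flip permutation test cannot give a p below 0.25, so no order reaches a p of 0.05, and neighbours were also compared by whether their ranges overlapped. Of the 7 pairs of neighbours, 4 did not overlap. Irf1 exceeded Irf2 by 0.23 ± 0.0342 (SD) on this log2 scale, Irf2 exceeded Irf9 by 0.95 ± 0.0326, Irf9 exceeded Irf3 by 0.36 ± 0.150 and Irf7 exceeded Irf5 by 1.64 ± 0.189, each in 3 of 3 libraries with an exact p of 0.25, adjusted over the 7 pairs to 0.35. Irf3 and Irf7 did not differ beyond their spread, with a mean difference of 0.07 ± 0.249 and Irf7 higher in library 2 (exact p = 0.75). The ranges of Irf5 and Irf8 also overlapped, although Irf5 was higher within each library, by 0.38 ± 0.391. Irf8 and Irf4 did not differ beyond their spread, at 0.07 ± 0.418, with Irf4 higher in library 3 (exact p = 0.75).

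Irf1, on chromosome 11 at 53770014 to 53778374 of mm10 (plus strand), encodes the factor that interferon-gamma induces. Its level was 197, 217 and 189 TPM, above that of 95.3% (mean over libraries) of the 16115 genes that reached 1 TPM in any library. Irf2, on chromosome 8 at 46739732 to 46847458 (plus strand), encodes a factor that binds the same elements and mostly restrains them. Its level was 167, 182 and 165 TPM. Library 2 held the highest TPM of both genes, and libraries 1 and 3 lay close together.

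Irf9, on chromosome 14 at 55603571 to 55610030 (plus strand), encodes the DNA-contacting subunit of ISGF3. It stood at 87.3, 95.4 and 83.4 TPM, again highest in library 2. Irf7, on chromosome 7 at 141262706 to 141266481 (minus strand), is itself an interferon-stimulated gene and amplifies type I interferon production. It stood at 56.3, 76.0 and 67.0 TPM, so that library 1 was lowest. Irf3, on the same chromosome at 44997648 to 45002848 (plus strand), encodes a factor that waits in the cytoplasm until a sensor pathway phosphorylates it. It stood at 69.5, 66.5 and 71.4 TPM, the narrowest relative spread of the 8 genes, with an SD of 3.59% of the mean.

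Irf5, on chromosome 6 at 29526625 to 29541871 (plus strand), acts downstream of toll-like receptors and is best known from macrophages, dendritic cells and B cells. Its level was 18.0, 21.2 and 24.4 TPM. Irf8, on chromosome 8 at 120736358 to 120756694 (plus strand), directs the development of dendritic cells, monocytes and B cells. Its level was 15.7, 19.6 and 13.7 TPM, so library 2 was highest and library 3 lowest. Irf4, on chromosome 13 at 30749226 to 30766976 (plus strand), is induced by T cell receptor signals. It stood at 14.5, 14.2 and 17.6 TPM, close to the level of Foxp3, with library 3 highest. Irf4 was therefore the lowest of the 8 genes by mean level, above 61.0% of the genes that reached 1 TPM in any library, while its DNA partner Batf stood at 216, 235 and 227 TPM.

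To set the libraries against counting noise, a Poisson chi-square test of homogeneity was run on the rounded estimated counts of all 13970 genes with a mean count of at least 10, with library sizes scaled by TMM (a scaling that assumes most genes do not differ) and Benjamini-Hochberg adjustment over all of them. Of the 8 IRF genes, 6 passed at an adjusted p of 0.05, against 45.7% of all tested genes and 57.1% of the 5007 genes whose mean count lay in the range of the IRF genes. All 6 were highest in library 2, whereas 15.5% of all tested genes passed and were highest there. Their ratios of highest to lowest library were modest: 17.5% of all tested genes passed with more than 1.5-fold, and among the IRF genes Irf8 alone did. The median ratio was 1.22 over the 8 genes and 1.26 over all tested genes, and the median chi-square per degree of freedom, for which counting noise alone gives a mean near 1, was 19.3 against 3.28. At a given ratio chi-square grows with the count, and the IRF genes had mean counts between 380.3 and 3866, beside a filter of 10. These 2 medians are not matched for count, so they do not show that the IRF genes varied more. Macrophage and monocyte markers were also highest in library 2, with sums of 9.67, 60.1 and 24.8 TPM in libraries 1, 2 and 3, and their part in these differences was not tested.

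**Figure D2:**
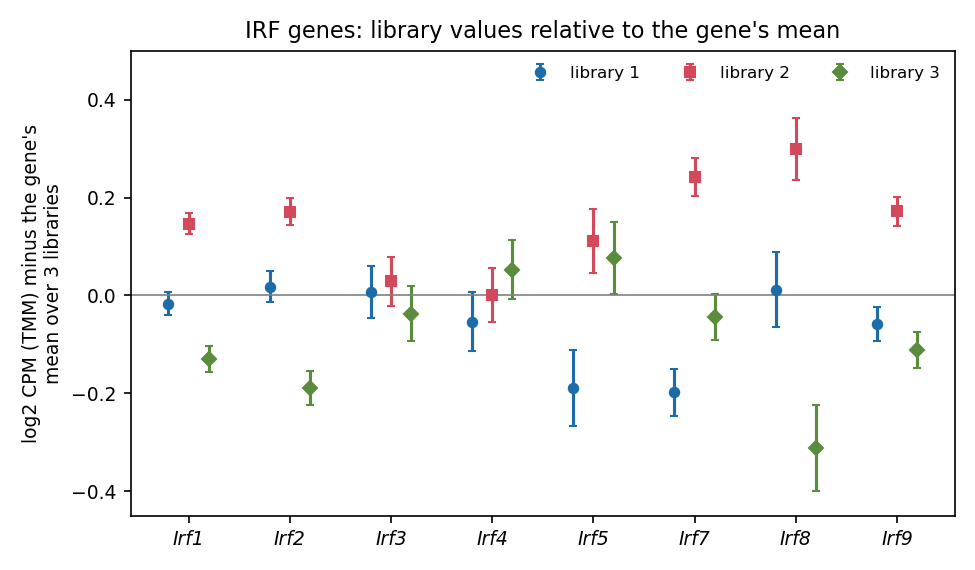
Difference of each library's log2 CPM (counts per 1000000 after TMM scaling) from the gene's mean over the 3 libraries, with bars for 1 counting standard error. Library 2 lies above the other libraries for Irf1, Irf2, Irf7, Irf8 and Irf9, while the 3 libraries lie within 0.11 of each other for Irf3 and Irf4.

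In CPM, a scale that is not adjusted for gene length, Irf8 stood at 30.5, 37.2 and 24.4 in libraries 1, 2 and 3, on estimated counts of 359, 514 and 268. Library 2 exceeded library 3 by 0.61 ± 0.109 on the log2 scale (counting SE), which is 1.53-fold (Poisson chi-square test, Benjamini-Hochberg adjusted p = 7.12e-07). Of the 10 macrophage and monocyte markers 5 met the mean count of 10. Adgre1, named after its values were seen, met it through library 2, on counts of 3, 25 and 9. All 5 passed and were highest in library 2, beside 15.5% of all tested genes, a result that such a filter favours. Lyz2, the most abundant, stood at 1.45, 31.9 and 11.7 TPM. The part of these markers in the Irf8 difference was not tested. Irf8 was lowest in library 3, whereas the macrophage and monocyte markers had their lowest sum in library 1. B cell markers summed to 28.9, 61.3 and 76.4 TPM and dendritic cell markers to 15.6, 14.5 and 18.1 TPM in libraries 1, 2 and 3. The part of these 2 lists in the Irf8 difference was not tested either. In bulk RNA, fewer cells of a type and less RNA per cell cannot be told apart.

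Irf7 stood at 75.1, 102 and 83.6 CPM, and library 2 exceeded library 1 by 0.44 ± 0.0619 on the log2 scale (Poisson chi-square test, Benjamini-Hochberg adjusted p = 1.71e-11). The 2 other libraries lay nearer to each other, and without library 2 the difference between them missed the threshold (Poisson chi-square test, adjusted p = 0.0682). Irf2 stood at 180.1, 200.3 and 156 CPM, and library 2 exceeded library 3 by 0.36 ± 0.0443 (Poisson chi-square test, adjusted p = 7.39e-14). Here library 1 lay between the others, and libraries 1 and 3 alone still differed. Irf1 stood at 310.3, 348 and 287 CPM, a difference of 0.28 ± 0.0331 between libraries 2 and 3 (Poisson chi-square test, adjusted p = 1.9e-15). Its order of libraries was that of Irf2.

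Irf9 stood at 147, 172 and 141 CPM, and library 2 exceeded library 3 by 0.28 ± 0.0471 on the log2 scale (Poisson chi-square test, adjusted p = 2.51e-09). Libraries 1 and 3 alone did not pass (Poisson chi-square test, adjusted p = 0.46), so this call rests on library 2. Irf5 stood at 29.1, 35.8 and 35.0 CPM, with library 1 low and libraries 2 and 3 alike, a difference of 0.30 ± 0.101 between libraries 2 and 1 (Poisson chi-square test, adjusted p = 0.0198). Libraries 2 and 3 alone did not pass (Poisson chi-square test, adjusted p = 0.825), so this call rests on library 1. In TPM, by contrast, Irf5 was highest in library 3, where 13.6% of its TPM was assigned to the 403-base transcript Irf5-206, named after its values were seen, on 9.72 estimated counts. A short transcript adds more TPM per read than a long one, and the part of Irf5-206 in this difference was not tested. The main coding transcript, Irf5-201, was also highest in library 3, at 16.4, 20.6 and 21.1 TPM in libraries 1, 2 and 3.

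Irf3 and Irf4 did not pass. Irf3 stood at 60.4, 61.4 and 58.6 CPM (Poisson chi-square test, adjusted p = 0.741), and Irf4 at 48.6, 50.5 and 52.3 CPM (Poisson chi-square test, adjusted p = 0.551). The log2 differences between their extreme libraries were 0.07 ± 0.0754 and 0.11 ± 0.0852, beside 0.44 for Irf7. Irf4 was the single IRF gene with its highest value in library 3 under this scaling.

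The direction depended partly on the scaling. With library sizes taken as the total estimated counts, 6 IRF genes again passed but 5 were highest in library 2, since Irf5 turned to library 3, and Irf3, which did not pass, turned to library 3 as well. Over all genes that passed, the share highest in library 2 moved from 33.9% to 22.8% and the share highest in library 3 from 35.4% to 48.8% with this scaling. In the whole-number gene table, which was counted separately on GENCODE M4 and has smaller totals, 3 of the 8 genes passed, against 21.5% of the 10013 genes tested there. These were Irf7 (1.35-fold), Irf8 (1.58-fold) and Irf9 (1.19-fold), all highest in library 2. Irf1, Irf2 and Irf5 did not pass there (Poisson chi-square test, adjusted p = 0.346, 0.0689 and 0.191), although 7 of the 8 IRF genes, all but Irf4, had their highest value in library 2.

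The size of the whole-number count relative to the estimated count differed between IRF genes. These counts were made separately, so their ratio is not a share of the same reads. It was 75.1% for Irf5, 64.6% for Irf3 and 59.1% for Irf7, whereas it was 33.8% for Irf2, 25.5% for Irf1 and 19.5% for Irf4. The median ratio was 44.1% over the 4640 genes with a mean estimated count between 200 and 1000, and 36.7% over the 2147 genes between 1000 and 5000. Irf4 thus rested on 100, 128 and 131 whole-number counts, where library 3 exceeded library 1 by 1.40-fold without passing (Poisson chi-square test, adjusted p = 0.0982). No source used here gives the counting rules behind that table.

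The IRF genes differed in the class of transcript that carried their reads. On average, transcripts annotated as protein coding held 33.3 ± 1.84% (SD, n = 3) of the TPM of Irf3 and 57.1 ± 2.24% of that of Irf7, against between 84.3% and 100.0% for each of the other 6 genes. The rest of Irf3 and Irf7 was annotated as retained intron, a class of transcripts that keep intron sequence and are not assigned a protein. The median coding share of the 8 genes was 92.5%, beside 86.5% over 10131 detected protein-coding genes, of which 8.50% had a lower share than Irf3 and 20.7% a lower share than Irf7. Retained-intron transcripts also held 15.7 ± 1.95% of Irf9 and 8.25 ± 2.92% of Irf2.

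**Figure D3:**
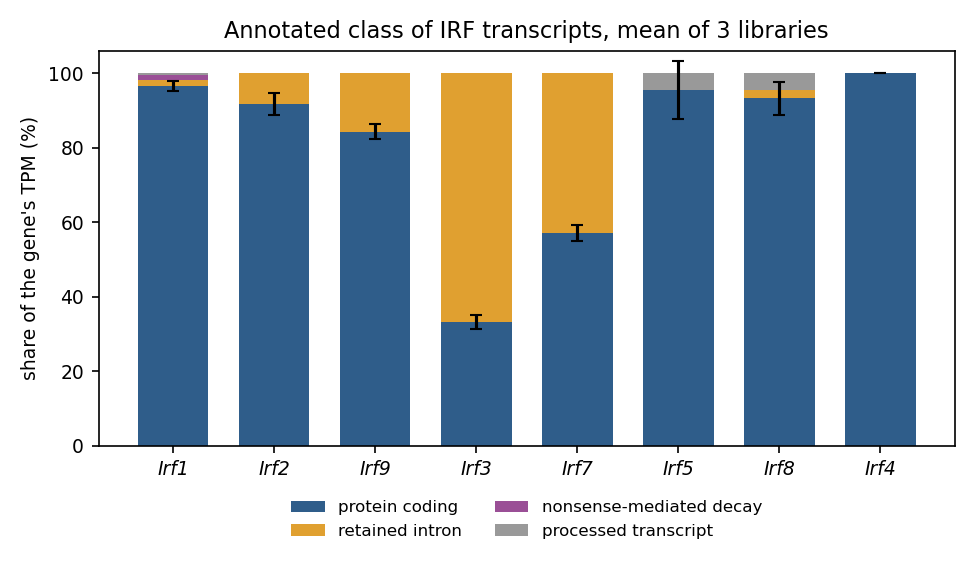
Percent of each IRF gene's TPM held by transcripts of each annotated class, as stacked bars of the mean over 3 libraries, with the SD of the coding share as a black bar. Coding transcripts hold 33.3% of Irf3 and 57.1% of Irf7, and at least 84.3% of each other gene.

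For Irf3 the coding share was 33.8%, 31.2% and 34.7% in libraries 1, 2 and 3, much alike in the 3 libraries. The largest single transcript was Irf3-207, with 31.4%, 44.6% and 29.9% of the gene's TPM. It keeps intron 5 of the 7 introns of the coding transcript Irf3-202, a stretch of 98 bases on chromosome 7 at 45000547 to 45000644 of mm10. Irf3-210 and Irf3-212, also retained-intron transcripts, held 13.5% and 12.5% on average. Irf3-202 was assigned 186, 0 and 196 reads, and its posterior mean in library 2 was 47.2 ± 33.3 reads (posterior SD). The retained-intron transcript Irf3-207 was assigned 516 reads in library 2, with a posterior mean of 472 ± 41.4 reads. How the reads of library 2 were split was thus uncertain, between coding and retained-intron transcripts as well as among coding ones. Taken alone, the coding transcripts of Irf3 summed to 23.5, 20.8 and 24.8 TPM, close to the level of Irf5.

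For Irf7 the coding share was 57.2%, 59.3% and 54.9%. The main coding transcript, Irf7-201, held 53.7 ± 3.25% of the gene's TPM. With posterior mean TPM its share was lower, at 36.1%, 40.3% and 37.4% in libraries 1, 2 and 3. Irf7-210, a retained-intron transcript, held 25.4%, 21.7% and 21.8%, and it keeps intron 5 of the 9 introns of Irf7-201, 69 bases on chromosome 7 at 141264656 to 141264724. The coding transcripts of Irf7 summed to 32.2, 45.1 and 36.8 TPM, so library 2 remained highest and library 1 lowest. On coding transcripts alone Irf7 exceeded Irf3 in all 3 libraries, with Irf3 lower by a mean log2 difference of -0.71 (exact sign-flip permutation test, p = 0.25, the smallest that 3 libraries allow), whereas over all transcripts these genes did not differ beyond their spread.

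The remaining genes leaned on few coding transcripts. Irf1-202 held 94.0 ± 2.02% of Irf1 and Irf5-201 held 91.6 ± 5.38% of Irf5. Irf8-201 held 75.2 ± 3.77% of Irf8 with Irf8-204 between 11.5% and 19.1%, and Irf9-205 held 70.4 ± 2.83% of Irf9. With posterior mean TPM the share of Irf5-201 was lower, at 65.5%, 76.1% and 65.4% in libraries 1, 2 and 3. Irf2 was the most divided of the coding-dominated genes, with Irf2-201 at 42.8 ± 3.34% and Irf2-205 at 24.9 ± 4.70%. Irf2-205 is annotated with 383 bases, so its 24.9% of the TPM came from between 98.5 and 183 estimated counts, beside between 1315 and 2215 for Irf2-201.

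Irf4 had 3 annotated transcripts, all coding, and its main pair differs only at the start of exon 5 on chromosome 13, at 30753445 in Irf4-201 and at 30753448 in Irf4-202 of mm10. The stretches around this junction are shown because the split between the transcripts rests on 3 bases, written in capitals, that Irf4-201 has and Irf4-202 lacks. The reference sequences run 5′ to 3′ on the plus strand of the spliced transcripts.
Irf4-201: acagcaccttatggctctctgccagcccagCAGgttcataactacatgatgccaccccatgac
Irf4-202: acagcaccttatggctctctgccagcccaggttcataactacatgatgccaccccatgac

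Irf4-201 was assigned 569, 334 and 337 reads and Irf4-202 was assigned 0, 361 and 229.6 reads in libraries 1, 2 and 3. Taken at face value, library 1 lacked Irf4-202 and libraries 2 and 3 did not. The posterior means were 402 ± 139.9, 347 ± 104 and 317 ± 73.4 reads (posterior SD) for Irf4-201 and 166 ± 139.8, 347 ± 104 and 249.8 ± 73.2 for Irf4-202. The posterior ranges of 1 SD overlapped between all 3 libraries for each transcript, so a difference in the use of the 3 bases was not detectable. The gene total was not touched by this split, and its posterior SD was 0 in each library. Irf4-203, a 360-base transcript, held 10.3% of the TPM on average from between 2.32 and 8.18 reads.

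**Figure D4:**
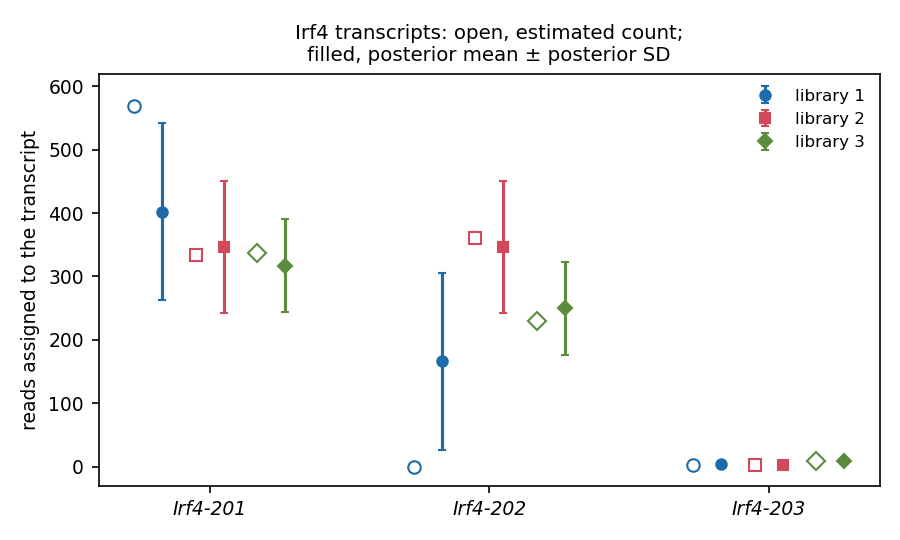
Reads assigned to the 3 Irf4 transcripts in each library, with open symbols for the estimated count and filled symbols with bars for the posterior mean ± posterior SD. Irf4-202 has an estimated count of 0 in library 1 but a posterior mean of 166 reads, and the bars of the libraries overlap for Irf4-201 and Irf4-202.

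Several IRF genes share sequence with neighbours, and whether the counting used strand is not given in the sources used here. Annotated inside a longer locus, Irf8 lies within the annotated locus Gm20388 on the same strand, which was given 463, 400 and 273 estimated counts. Irf9 overlaps the last 123 bases of Rnf31 on the same strand. On the opposite strand Irf3 overlaps Bcl2l12 over 1065 bases and Irf5 overlaps Tnpo3 over 1045 bases, and Tnpo3 held 1867, 1859 and 1501 counts beside 342, 494 and 384 for Irf5. Irf7 and Phrf1 overlap by 45 bases. The posterior SD of the gene count was at most 8.02 reads for any IRF gene in any library, so the assignment model itself left little doubt about the gene totals.

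Promoter windows from RefSeq (GRCm38.p6, 250 bases before to 50 after each annotated start) were found for 8 of 8 genes, 11 windows in all, and searched on both strands for 5 motifs. Of the 8 genes 3 held a match, Irf1, Irf2 and Irf8. Irf5, Irf7 and Irf9, which also passed and were highest in library 2, held none, and a link between motifs and libraries was not tested. The windows with a match are shown from 250 to 51 bases before the start, on the gene's own strand, with matches in capitals.
Irf1: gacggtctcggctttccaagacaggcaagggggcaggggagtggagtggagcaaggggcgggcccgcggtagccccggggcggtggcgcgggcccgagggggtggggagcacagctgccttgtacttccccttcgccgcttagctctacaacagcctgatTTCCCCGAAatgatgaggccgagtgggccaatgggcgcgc
Irf2: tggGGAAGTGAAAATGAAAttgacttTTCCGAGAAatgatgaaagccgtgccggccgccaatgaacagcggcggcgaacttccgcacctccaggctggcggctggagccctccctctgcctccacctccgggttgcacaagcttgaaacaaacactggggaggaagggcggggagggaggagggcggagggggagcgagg
Irf8: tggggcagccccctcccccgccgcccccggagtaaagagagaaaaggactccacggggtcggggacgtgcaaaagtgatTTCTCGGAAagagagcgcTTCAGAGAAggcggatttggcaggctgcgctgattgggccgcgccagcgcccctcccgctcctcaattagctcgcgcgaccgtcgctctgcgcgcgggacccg

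The printed windows are chr11:53769764-53769963 for Irf1, chr8:46739495-46739694 for Irf2 and chr8:120736108-120736307 for Irf8. The gamma-activated site TTCNNNGAA, an element of interferon-gamma responses, began 90 bases before the start of Irf1, 224 before that of Irf2, and 171 and 153 before that of Irf8. It was present in 8.30% of all 32851 windows. The Irf2 window also held the IRF element, a GAAA followed after 2 bases of any kind by another GAAA, 241 bases before the start, which 3.44% of all windows hold, and overlapping it the composite element of ETS and IRF proteins, a GGAA followed after 2 bases by GAAA, 247 bases before the start, which 2.72% hold. The kappaB-like motif (GGGAA and CC with 3 bases between them) and the AP-1 motif TGANTCA, present in 5.78% and 7.81% of all windows, had no match in the windows of the 8 genes. These matches describe the reference sequence, and binding was not measured.

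Upstream of the IRFs, interferon-gamma was the single interferon gene detected. Ifng stood at 28.6, 57.0 and 38.5 TPM, highest in library 2 and lowest in library 1 by 2.22-fold in CPM (Poisson chi-square test, adjusted p = 2.32e-31). Eomes, from the CD8 T and NK cell markers, followed the same order at 0.240, 8.63 and 2.72 TPM, within list sums of 7.15, 21.6 and 20.2 TPM. Of the 4 markers tested in that list, 1, Eomes, was highest in library 2 and 3 were highest in library 3. The macrophage and monocyte markers followed the order of Ifng in their sums, at 9.67, 60.1 and 24.8 TPM. The part of either list in the Ifng difference was not tested. Of the 12 interferon genes listed, 8 were at 0 counts in every library: Ifnb1, Ifna1, Ifna2, Ifna4, Ifna5, Ifna13, Ifne and Ifnl2. A count of 0 allows up to 3 counts, or 0.254, 0.212 and 0.281 CPM in libraries 1, 2 and 3. The list of interferon receptors and ISGF3 signalling had 12 of 13 genes detected and 6 of 12 tested genes passed, a share near the 45.7% of all tested genes, 4 of them highest in library 2. Without library 3, 3 passed, and 1 passed in the whole-number table. Of those that passed in the estimated counts, Jak1 stood at 217, 252 and 210.5 TPM and Ifngr1, the ligand-binding chain of the interferon-gamma receptor, at 314, 315 and 287 TPM, while Ifnar1, a chain of the type I interferon receptor, stood at 53.3, 48.7 and 43.1 TPM and did not pass.

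Sensors and kinases that activate IRF3, IRF5 and IRF7 were mostly present, with 15 of 17 detected, and 5 of 15 tested genes passed (33.3%, beside 45.7% of all tested genes). Without library 2, 2 of 15 tested genes passed, beside 4292 of all 13971 tested genes. Tmem173, which encodes STING, was the most abundant at 257, 256 and 260 TPM and did not pass. Tbk1 and Ikbke, the kinases of IRF3 and IRF7, stood at 57.3, 66.2 and 51.7 TPM and at 55.8, 46.5 and 61.6 TPM, so that Tbk1 was highest and Ikbke lowest in library 2. With total-count scaling 3 genes of this list passed, and 1 of these was highest in library 2 in place of 4. Among 9 proteins that bind or modify IRFs, 5 passed (55.6%, beside 45.7% of all tested genes) and none of these was highest in library 2, whereas 15.5% of all tested genes passed and were. Without library 3, 1 gene passed, as in the whole-number table. Fkbp4, Swap70 and Irf2bp1 were among the 4 highest in library 1, and the other was Irf2bp2, a corepressor partner of IRF2, highest in library 3. Irf2bp1 lies outside the naming rule and was named after its values were seen.

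Partner factors of the IRFs followed several orders. Of 11 tested, 7 passed (63.6%, beside 45.7% of all tested genes), with 4 highest in library 3, 2 in library 2 and 1 in library 1. Without library 3, 4 passed, and 2 of 8 tested passed in the whole-number table. Ets1 was the most abundant at 707, 661 and 678 TPM. Junb, which joins BATF in the dimer that recruits IRF4, stood at 19.5, 22.4 and 34.4 TPM, 1.72-fold higher in library 3 than in library 1 in CPM (Poisson chi-square test, adjusted p = 1.45e-13). B cell and erythroid markers also had their highest sums in library 3, and their part was not tested. Spi1, named after its values were seen, the partner of IRF4 and IRF8 in B cells and myeloid cells, was below the detection limit, at 0.540 TPM or less in each library. Of the 7 STAT genes, 3 passed (42.9%, near the 45.7% of all tested genes), all highest in library 2. Without library 2, 1 of the 7 passed, beside 4292 of all 13971 tested genes.

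Genes that respond through the IRFs were compared as lists, beside the 45.7% of all tested genes that passed and the 15.5% that passed and were highest in library 2. In the interferon-gamma and IRF1 route list 13 of 15 genes passed and 12 of these were highest in library 2. The list's median ratio of highest to lowest library was 1.16, below the 1.26 over all tested genes. Its median level was 164 TPM beside 12.1 TPM, and chi-square grows with the count. The shares that passed are not matched for count, so they do not show that this list varied more. Psmb8, an immunoproteasome subunit, stood at 775, 815 and 741 TPM, Igtp, an interferon-inducible GTPase, at 217, 238 and 202 TPM, and Gbp2 at 65.0, 91.0 and 68.7 TPM. The exception was Ciita, the class II transactivator, named after its values were seen, which was highest in library 3 at 0.480, 1.41 and 1.88 TPM. B2m was highest in library 2 in CPM and in library 3 in TPM. With total-count scaling 12 genes passed and 10 were highest in library 2, while 6 passed in the whole-number table, 3 highest in library 2 and 3 in library 3, so the direction of this list depends on the table. Without library 2, 7 of 15 genes passed, beside 4292 of all 13971 tested genes. The macrophage and monocyte markers also had their highest sum in library 2 (60.1 TPM), and their lowest in library 1 (9.67 TPM). Of the 13 genes that passed with TMM scaling, 4 were lowest in library 1 and 9 in library 3. Over all genes that passed, 29.6% were lowest in library 1 and 42.5% in library 3. The part of these markers in the list was not tested.

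In the ISGF3 and IRF7 route list 12 of 15 genes passed (80.0%, beside 45.7% of all tested genes) and 11 were highest in library 2. The median ratio of highest to lowest library was 1.52 beside 1.26 over all tested genes. Ifit3 stood at 10.5, 27.9 and 18.3 TPM, 2.72-fold between libraries 2 and 1 in CPM (Poisson chi-square test, adjusted p = 7.27e-30). The posterior SD of its count, which its close copy Ifit3b could raise, was at most 8.56 reads in any library. Ifit1 stood at 20.4, 30.2 and 25.7 TPM and Rtp4 at 71.6, 99.1 and 81.5 TPM. Library 1 was lowest for all 3, as it was for Irf7. Oas1a was the exception, highest in library 1 at 46.4, 42.4 and 39.5 TPM. With total-count scaling 11 genes passed, all highest in library 2, while 6 passed in the whole-number table, all highest in library 2. Without library 2, 5 of 15 genes passed, beside 4292 of all 13971 tested genes. Of the 12 genes that passed with TMM scaling, 9 were lowest in library 1 and 3 in library 3. Over all genes that passed, these shares were 29.6% and 42.5%. The macrophage and monocyte marker sum was likewise highest in library 2 and lowest in library 1. The part of these markers in the list was not tested.

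**Figure D5:**
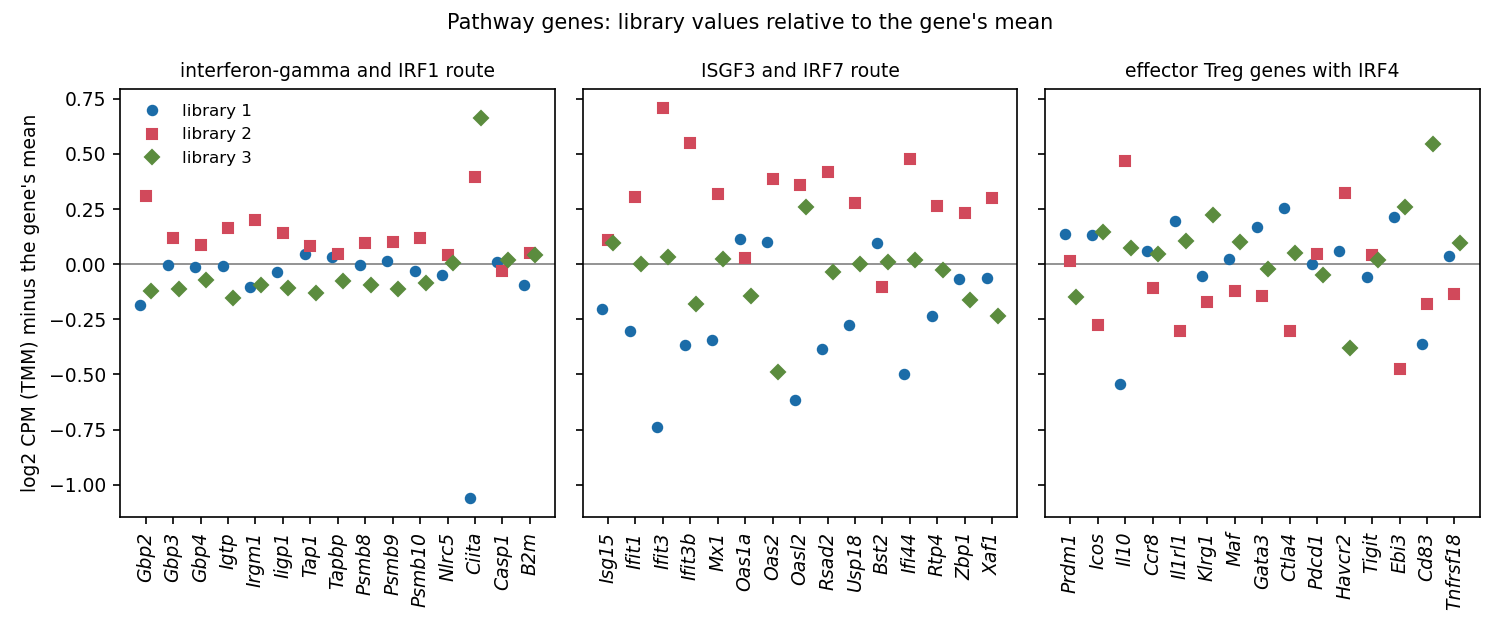
Difference of each library's log2 CPM (TMM scaling) from the gene's mean over 3 libraries for the 15 genes in each of 3 lists. Library 2 is highest for most genes of the interferon-gamma and IRF1 route and of the ISGF3 and IRF7 route with this scaling, and for 4 of the 14 genes that passed among the effector Treg genes.

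Effector Treg genes studied with IRF4 gave another picture. All 15 were detected and 14 passed (93.3%, beside 45.7% of all tested genes), and 9 of the 10 Treg and T cell markers passed too. These shares are not matched for count. The median level of the effector list was 111 TPM beside 12.1 TPM over all tested genes, and its median ratio 1.32 beside 1.26. The libraries were mixed for these 14 genes: 6 were highest in library 3, 4 in library 2 and 4 in library 1. Library 2 was lowest for 8 of them, beside 27.8% of all genes that passed. With total-count scaling 14 passed, 8 highest in library 3, 2 in library 2 and 4 in library 1. In the whole-number table there were 10 that passed, and these were highest in library 3 for 6, in library 2 for 1 and in library 1 for 3. Without library 2, 9 of 15 genes passed, beside 4292 of all 13971 tested genes. Icos stood at 376, 285 and 392 TPM, Ctla4 at 146, 96.4 and 129.7 TPM and Tnfrsf18 at 544, 479 and 588 TPM, each lowest in library 2. The 10 Treg and T cell markers likewise had their lowest sum there, at 8217, 7946 and 8393 TPM, and their part was not tested. Cd83 had the largest chi-square of the list, at 83.6, 91.6 and 159 TPM, 1.87-fold between libraries 3 and 1 in CPM (Poisson chi-square test, adjusted p = 3.74e-112). Prdm1, named after its values were seen as a gene that IRF4 is known to activate, stood at 25.6, 22.0 and 18.4 TPM, highest in library 1. Irf4 itself did not pass in these libraries.

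Irf8 was the one IRF gene that passed with more than 1.5-fold, and the genes whose pattern over the 3 libraries lay nearest to it were sought among 4434 protein-coding genes that passed with a mean count of at least 100. Nearest by the root mean square difference of centred log2 CPM were Pkmyt1 (0.00313), Gramd3 (0.00600) and Angptl2 (0.00665). Gramd3 stood at 87.0, 105 and 69.4 CPM. Of the 4434 genes compared, 234 lay within 0.1 of Irf8.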

How the data were processed

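RNA of 3 technical-replicate libraries of 1 Treg sample was measured. Per the file headers and the deposited descriptions, the authors estimated expected counts per gene and transcript on mm10 with GENCODE M21, in the column layout that RSEM writes. TPM values, scaled to 1000000 per library and adjusted for effective length, were made by the authors. The deposited tables also give the posterior SD of each count, used here as a signal of assignment uncertainty in reads, and the percent of a gene's TPM held by each transcript. A table of whole-number counts on GENCODE M4 genes was deposited separately, summing to 2988262, 3386154 and 2734873 in libraries 1, 2 and 3. No source used here gives the aligner, tool versions, read length, strand setting or duplicate handling.

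The gene table held 81881 entries, of which the 55536 genes were used. Transfer RNA and spike-in entries entered no count total or test. TPM values were kept as the authors scaled them and were not rescaled after these entries were left out. Estimated counts were 11829501, 14136139 and 10667765 in libraries 1, 2 and 3, and were rounded. TMM factors from genes with a mean count of at least 10 were 0.994, 0.976 and 1.03 (edgeR 4.0.16 in R 4.3.3). Since edgeR's quasi-likelihood test compares groups and there is 1 group, a Poisson chi-square test across libraries was used, in Python 3.11.15 with scipy 1.17.1, and it was tested on simulated data. It treats reads as independent, so intervals and floors cover counting error only. Log2 differences of TPM used a pseudocount of 0.1, which understates differences of low genes. Alternatives were DESeq2 1.42.0 size factors, total-count scaling, other count filters (none, or 50), posterior means, added posterior variance, the whole-number table, a pseudocount of 1, detection at 5 TPM, coding transcripts alone, and each library left out.

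The members, the 8 pathway lists, the STAT family and the 7 marker lists were chosen with earlier results of these data known. Named were all members. From each list were taken up to 5 genes with the highest mean TPM, up to 3 with the largest chi-square among those that passed, and genes at 0 counts, and of member transcripts those with at least 10% of the gene's TPM and the main coding one. Genes named for likeness were the 3 nearest to a member with more than 1.5-fold. Some genes that this rule takes are not reported here by name, though they remain in the counts of their lists. Protein sequences were not analysed here.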

Additional observations from a re-analysis of the deposited data

How the results depend on the processing

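Of the 8 IRF genes, 6 passed the Poisson chi-square test under TMM, DESeq2 and total-count scaling, under each count filter, with posterior mean counts and with added posterior variance. With the whole-number counts 3 IRF genes, 2157 genes in all and 30 pathway genes passed, beside 6, 6388 and 61 with the estimated counts. Totals, annotation and counting all differ in that table, and the cause was not tested. Leaving out 1 library at a time, between 4 and 6 IRF genes, between 2971 and 4797 genes in all (fewest without library 3) and between 37 and 50 pathway genes (fewest without library 2) passed. The order of neighbouring levels turned in 4 cases. Irf3 minus Irf7 was -0.71 on coding transcripts and -0.05 without replicate 1 (up to 0.20 without replicate 2), and Irf8 minus Irf4 was -0.03 on coding transcripts and -0.13 without replicate 2 (up to 0.29 without replicate 3), on the log2(TPM + 0.1) scale. The cause was not tested. With posterior mean TPM the coding share of Irf3 was 37.7% and that of Irf7 49.1%. All 8 IRF genes were also detected at 5 TPM.

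Some transcripts, such as Irf4-203 and Irf5-206, rest on fewer than 10 estimated counts in a library. For Irf3-202, Irf4-201, Irf4-202 and Irf7-201 the split of reads between similar transcripts was uncertain, with a posterior SD of up to 139.9 reads. The TPM shares of Irf5-201 and Irf7-201 were lower with posterior mean TPM. The 3 libraries are technical replicates of 1 sample, so no value here measures the spread between animals, and a difference between libraries cannot be told apart from one in preparation or cell make-up. No paired analysis was possible because the labels give 1 group.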
